A study of Homo sapiens with 4 samples.

Results

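The hypoxia and HIF target genes examined here were *VEGFA*, *ADM*, *CA9*, *SLC2A1*, *PDK1*, *BNIP3L*, *EGLN3*, *KDM3A*, *NDRG1* and *ANKRD37*, a set of well-known targets of the hypoxia-inducible factor found by their symbols in the gene count table. All 10 were among the 28278 genes listed. RNA-seq was performed with 2 libraries of control cells, which carried Cas9 and a control sgRNA, and 2 libraries labelled sgUSP22, which carried Cas9 and an sgRNA against *USP22*, a deubiquitinase of the SAGA chromatin complex. Both kinds of cells were labelled HepG2, a human liver cancer cell line. They were lentivirally infected cell populations rather than named single clones, and all 4 libraries came from cells treated with 10 µM Sorafenib, a multi-kinase inhibitor, for 24 h. Libraries without Sorafenib are not analysed here, and the labels name no exposure to low oxygen.

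The total counts ranged from 62030307 to 64728272 per library. The targeted transcript was checked first: *USP22* had 16450 and 16537 counts in control against 20279 and 20368 in sgUSP22 libraries. Its log2 fold change was 0.22 (edgeR, adjusted p = 0.000394, SE 0.034), so its transcript was higher, not lower, in the libraries labelled sgUSP22. Transcript counts do not measure the USP22 protein, so they do not show whether the protein was lost. Every direction below follows the label alone. Of 20 hepatocyte marker genes, 11 were at 0 counts in all 4 libraries, *ALB*, *APOA1*, *APOB* and *TTR* among them, and the whole list summed to 0.443 and 0.561 CPM (counts scaled to a common library size) in the control libraries and to 0.913 and 0.480 CPM in the sgUSP22 libraries. The defining hepatocyte markers were thus at or near 0 in both groups, so these counts do not bear out the liver origin in the label HepG2. The identity of the cells is taken from the label and was not tested. The 8 mesenchymal markers summed to between 2092 and 2238 CPM, within which *FN1* was called higher (log2 fold change 1.13) and *PDGFRB* lower (-0.98), and *VIM* had -0.39. The 6 epithelial markers, with *CDH1* and *KRT19* at 0, summed to 1816 and 1854 CPM in control and to 1440 and 1383 CPM in sgUSP22 libraries, in which *KRT8* and *KRT18* made up most of the sum. Of 4 blood cell markers, *CD3E* and *HBB* were at 0 and *PTPRC* had 4 counts in 1 library, and the remaining gene, *CD68*, fell from 73.8 and 73.9 CPM to 46.8 and 43.9 CPM. The 4 endothelial markers summed to between 0.131 and 0.657 CPM by library. The part of such differences in the results below was not tested.

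Hypoxia-inducible factor, HIF, is a transcription factor made of an oxygen-labile alpha subunit (HIF1A or EPAS1) and a stable partner, ARNT. When oxygen is available, prolyl hydroxylases of the EGLN family mark the alpha subunit, and the VHL ubiquitin ligase then removes it. When oxygen is short, or when the iron-dependent hydroxylases are inhibited, the factor binds a short DNA core in its target genes, which serve blood vessel growth, glucose uptake, glycolysis, acid export and mitophagy. In liver cancer, VEGFA made by the tumour cells acts on receptors that are among the kinases blocked by Sorafenib.

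Of the 10 genes, 3 changed in the comparison of sgUSP22 with control libraries, and they went in both directions. *ADM*, which encodes the vasodilator peptide adrenomedullin, was 4.24-fold lower. *CA9*, which encodes a cell surface carbonic anhydrase that controls pH, was 2.89-fold lower. *EGLN3*, which encodes a prolyl hydroxylase that acts on HIF alpha subunits, was 1.73-fold higher. *VEGFA* was slightly lower and stayed within 1.5-fold, and the remaining 6 genes did not pass the adjusted p-value threshold.

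Changed genes were those with at least a 1.5-fold difference and an edgeR quasi-likelihood p-value under 0.05 once adjusted (Benjamini-Hochberg) over the 15150 genes tested. All 10 genes passed the filter on low counts. The 1 call in the higher direction and 2 calls in the lower direction stand beside 8.88% and 7.25% of all tested genes called in these directions, and the 3 calls beside 16.1% in either direction. Without the fold threshold, 4 of the 10 genes passed the adjusted p-value threshold, against 52.5% of all tested genes. In 7 of the 10 genes the libraries of the 2 groups were fully separated, 4 with sgUSP22 higher and 3 with it lower, against 75.9% of all tested genes, 38.3% higher and 37.6% lower. The median log2 fold change was -0.012 over the 10 genes and 0.00091 over all tested genes. The share of the set past both thresholds was above that of all genes and the share past the adjusted p-value alone was below it, and neither difference was tested. Nothing in the labels ties the replicates of a group to separate cultures, so the p-values measure the spread between these libraries, which may be technical. In such bulk RNA, fewer cells expressing a gene and less RNA per cell cannot be told apart.

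**Figure D1:**
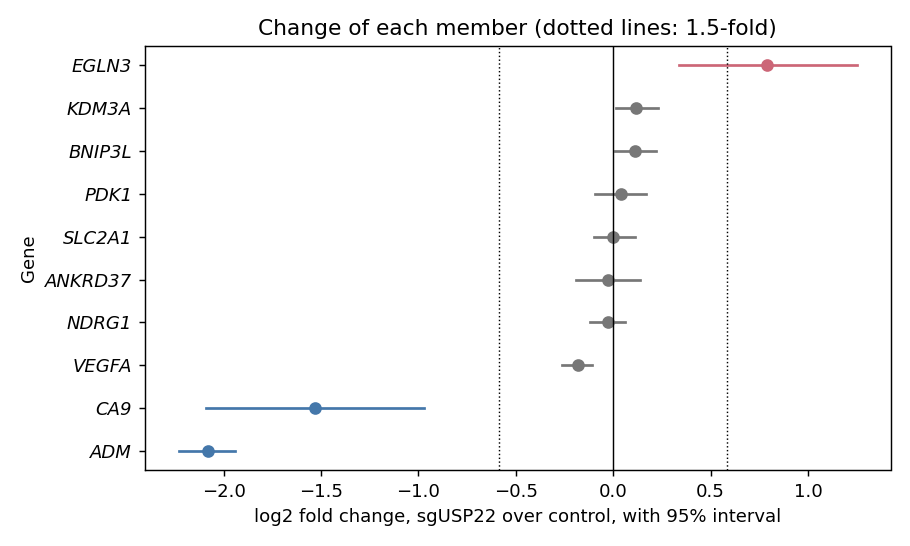
Points show the log2 fold change (sgUSP22 over control) of each of the 10 genes, and lines its 95% interval from edgeR, with 2 libraries per group. *ADM* and *CA9* (blue) were called lower and *EGLN3* (red) higher, while the intervals of *PDK1*, *SLC2A1*, *ANKRD37* and *NDRG1* span 0.

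The stretches before the transcription start sites of the 3 changed genes are shown because the DNA core bound by HIF, ACGTG or GCGTG, is best known close to the starts of its targets. They are the 250 bases upstream of the start annotated by RefSeq on GRCh38.p14, and capitals mark each core found on either strand, so that CACGT and CACGC are the same cores read on the opposite strand.
*ADM*, chr11:10304823-10305072, plus strand: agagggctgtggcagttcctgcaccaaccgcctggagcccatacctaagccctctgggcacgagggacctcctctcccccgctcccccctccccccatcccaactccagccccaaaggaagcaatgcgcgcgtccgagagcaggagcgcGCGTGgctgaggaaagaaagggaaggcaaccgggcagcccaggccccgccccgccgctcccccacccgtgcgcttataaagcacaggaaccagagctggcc
*CA9*, chr9:35673678-35673927, plus strand: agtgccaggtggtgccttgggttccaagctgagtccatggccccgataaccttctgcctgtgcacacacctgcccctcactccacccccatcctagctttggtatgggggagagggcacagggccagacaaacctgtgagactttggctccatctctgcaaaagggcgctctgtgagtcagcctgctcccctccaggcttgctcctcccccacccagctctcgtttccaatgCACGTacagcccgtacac
*EGLN3*, chr14:33951075-33951324, minus strand: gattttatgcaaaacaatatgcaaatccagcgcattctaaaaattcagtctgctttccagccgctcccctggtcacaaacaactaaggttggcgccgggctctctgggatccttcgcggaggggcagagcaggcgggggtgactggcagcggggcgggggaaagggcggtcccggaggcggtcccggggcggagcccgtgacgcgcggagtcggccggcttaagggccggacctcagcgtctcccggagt

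In *ADM* the core GCGTG began 101 bases before the start, and in *CA9* the core CACGT began 18 bases before it. No core was found in the *EGLN3* window, which says only that these letters are not in this stretch. The RefSeq start used for *EGLN3* lies inside the longer span that GENCODE gives the gene. Of the genes that stayed within 1.5-fold, *ANKRD37*, *PDK1* and *KDM3A* carried cores, which are shown for comparison as stretches of 30 bases, whereas the *SLC2A1* window and that of another *PDK1* start held none.
*ANKRD37*, chr4:185396676-185396705, plus strand: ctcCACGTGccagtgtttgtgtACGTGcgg
*PDK1*, chr2:172556060-172556089, plus strand: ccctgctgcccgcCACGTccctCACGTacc
*KDM3A*, chr2:86441332-86441361, plus strand: tccgggaggctgtGCGTGtcttgtgagagc
The overlapping CACGTG in *ANKRD37* reads as a core on both strands and was counted as 2 of its 3 matches. RefSeq windows were used for 7 of the 10 genes, with 2 starts each for *KDM3A* and *PDK1*. Of these 9 windows, 6 held at least 1 core, the core of *KDM3A* being counted in both of its overlapping windows. *VEGFA*, *BNIP3L* and *NDRG1* were left out, so nothing is said here about cores before their starts. The background windows below may not follow the same selection. Their shares therefore stand beside those of the members as description only, and no difference was tested. A core was present in 43.2% of all 35116 windows of this length and in 54.2% of the windows of tested genes. The stricter letters ACGTG were present in 3 of the 9 windows and in 21.9% of the windows of tested genes. A core of this length is therefore common, and its presence is a description of the sequence and not a measured binding site.

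Of the 2 secreted ligands, *ADM* showed the larger change. It lies on chromosome 11 from 10305073 to 10307397 on the plus strand of hg38 and had 3429 and 3713 counts in the control libraries, against 888 and 890 counts in the sgUSP22 libraries. Both sgUSP22 libraries were far below both control libraries, and the difference was larger than the spread within either group. In CPM, the level was 57.9 ± 2.32 (SD, n = 2) in control and 13.7 ± 0.193 (SD, n = 2) in sgUSP22 libraries, with a log2 fold change of -2.08 (edgeR, adjusted p = 1.75e-08, SE 0.065). Its p-value ranked 32 among the 15150 tested genes. With each library left out in turn, its log2 fold change stayed between -2.12 and -2.04. *ADM2*, which encodes the related peptide intermedin, went the other way, from 13.1 ± 0.499 (SD, n = 2) to 18.4 ± 0.441 CPM, a log2 fold change of 0.49 (adjusted p = 0.00104 from edgeR) that stayed within 1.5-fold.

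*VEGFA*, which encodes the main growth factor for blood vessels, lies on chromosome 6 from 43770184 to 43786487 on the plus strand. It was the most abundant of the set, with 17323 and 18128 counts in control against 16516 and 16413 in sgUSP22 libraries. The groups did not overlap, yet the change was small, from 287 ± 4.58 (SD, n = 2) to 253 ± 2.06 (SD, n = 2) CPM. The log2 fold change was -0.18 (95% interval -0.26 to -0.11, adjusted p = 0.00126 from edgeR), so *VEGFA* passed the adjusted p-value threshold and not the fold threshold. This direction depended on the scaling, since the log2 fold change was 0.047 when the libraries were scaled to *GAPDH*, which moved the median of all genes to 0.23. Such scaling moves every gene nearly alike, so the place of *VEGFA* relative to that median is not a separate check. *VEGFB*, its family member, was lower as well (log2 fold change -0.32, adjusted p = 0.000554 from edgeR), within 1.5-fold, but it missed the threshold after the GC content and length trends were removed (-0.12, adjusted p = 0.0795) and with scaling to *GAPDH* (-0.09, adjusted p = 0.275).

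The receptors of these ligands were hardly expressed. *KDR* had 0 counts in all 4 libraries, *FLT1* had 5 counts in a single control library, and *FLT4* had 4 counts in a single control library. The limit set by a count of 0 is 3 counts, which is 0.0457 to 0.0492 CPM by library and covers counting error only. For adrenomedullin, *CALCRL* was at 0 and 5 counts in control and at 12 in each sgUSP22 library, and the partner genes *RAMP2* and *RAMP3* were at 0 throughout, with *RAMP1* at 3 counts in 1 library. The co-receptor genes were measured better. *NRP2* fell from 90.3 ± 0.153 (SD, n = 2) to 57.1 ± 6.17 CPM (log2 fold change -0.66, adjusted p = 2.27e-05 from edgeR), though without sgUSP22 replicate 2 the log2 fold change was -0.56, within 1.5-fold. *NRP1* had a log2 fold change of 0.39 (adjusted p = 0.00302 from edgeR) and stayed within 1.5-fold.

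*CA9* lies on chromosome 9 from 35673928 to 35681159 on the plus strand and was expressed at a low level. It had 146 and 188 counts in control against 67 and 55 in sgUSP22 libraries. The groups did not overlap, but the control libraries themselves differed by more than for the abundant genes. The level fell to 0.936 ± 0.119 CPM (SD, n = 2) from 2.70 ± 0.438 (SD, n = 2) in control, a log2 fold change of -1.53 (95% interval -2.09 to -0.97, adjusted p = 0.000595 from edgeR). The log2 fold change ranged from -1.68 to -1.35 with each library left out in turn, and *CA9* remained called in each of these fits. *ARHGEF39*, on the opposite strand, overlaps *CA9* in the annotation and had 694 and 700 counts in control and 954 and 1029 counts in sgUSP22 libraries, a log2 fold change of 0.43, opposite in direction. The strand setting of the counting is not given in the sources used here, so reads of the overlapping part cannot be assigned to 1 gene with certainty. *CA12*, which encodes another cell surface carbonic anhydrase, had only 41 and 43 counts in control and 75 and 53 in sgUSP22 libraries and was not called (log2 fold change 0.53, 95% interval -0.26 to 1.31).

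**Figure D2:**
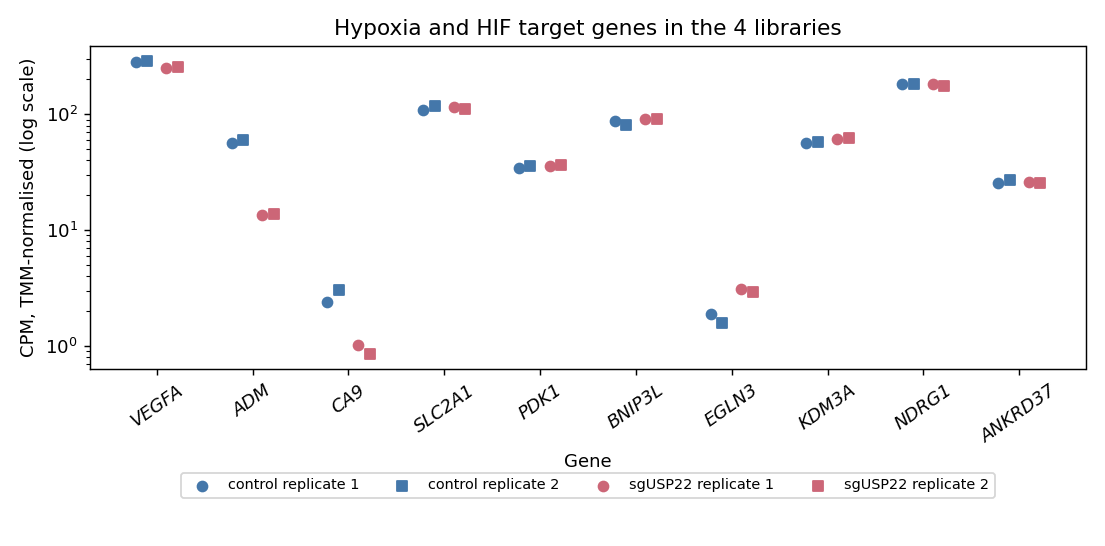
Each point gives the level of 1 gene in 1 library, in TMM-normalised CPM on a log axis, with control libraries in blue and sgUSP22 libraries in red. *ADM* and *CA9* sit lower and *EGLN3* higher in both sgUSP22 libraries, whereas the 4 points of *SLC2A1*, *NDRG1* and *ANKRD37* lie among each other.

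The 2 dioxygenase genes use oxygen as a substrate, as do the proteins that sense it. *EGLN3* encodes a hydroxylase that is itself induced by HIF and so forms a feedback loop, and *KDM3A* encodes a demethylase of histone H3 lysine 9. *EGLN3*, on the minus strand of chromosome 14, had 115 and 99 counts in control against 204 and 188 in sgUSP22 libraries. Both sgUSP22 libraries exceeded both control libraries. It rose to 3.01 ± 0.136 CPM (SD, n = 2) from 1.74 ± 0.212 (SD, n = 2) in control, a log2 fold change of 0.79 (95% interval 0.34 to 1.25, adjusted p = 0.00846 from edgeR). This was the weakest of the 3 calls, because without sgUSP22 replicate 1 the adjusted p-value was 0.0566, with a log2 fold change of 0.73. With DESeq2 the adjusted p-value was 0.0415. The annotated span of *EGLN3* reaches from 33924227 to 34462774 and contains *SPTSSA* on the same strand, whose log2 fold change was 0.55 and, without control replicate 1, reached 1.5-fold at 0.60, and the part of shared reads in the *EGLN3* counts was not tested.

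*KDM3A*, on chromosome 2 from 86440647 to 86492716, had 3444 and 3631 counts in control and 4059 and 4060 counts in sgUSP22 libraries. The groups did not overlap, at 57.3 ± 1.22 (SD, n = 2) and 62.3 ± 0.795 (SD, n = 2) CPM. The log2 fold change of 0.12 (95% interval 0.015 to 0.23) missed the threshold with an adjusted p of 0.0540 from edgeR, which was 0.0109 when only library size was used and 0.703 (limma) after the GC content and length trends were removed. Of the paralogs, *KDM3B* had a log2 fold change of -0.20 (adjusted p = 0.00209 from edgeR), within 1.5-fold, which became 0.036 with scaling to *GAPDH*.

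The members that direct carbon and mitochondria were close to level between the groups. *SLC2A1*, which encodes the glucose transporter GLUT1, had 109 and 118 CPM in the control libraries and 116 and 112 CPM in the sgUSP22 libraries. The groups overlapped, and the log2 fold change was 0.0011 (95% interval -0.10 to 0.11). This interval lies well inside the 1.5-fold threshold. *SLC2A3*, which encodes the related transporter GLUT3, had 202 and 209 CPM in control and 245 and 240 CPM in sgUSP22 libraries, a log2 fold change of 0.24 (adjusted p = 0.000363 from edgeR), within 1.5-fold.

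*PDK1* encodes a kinase that blocks the entry of pyruvate into the mitochondrial citric acid cycle. It had 2116 and 2212 counts in control and 2349 and 2345 counts in sgUSP22 libraries, with a log2 fold change of 0.039 (95% interval -0.092 to 0.17). The groups did not overlap, but they differed by little more than the libraries of 1 group, at 35.1 ± 0.533 (SD, n = 2) and 36.0 ± 0.410 (SD, n = 2) CPM. After trends with GC content and transcript length were removed from each library, its log2 fold change was -0.29 and passed the adjusted p-value threshold (0.00169 from limma). The annotated transcript used for *PDK1* is 14072 bases long with 39.46% GC, the longest of the set. *PDK4* was lower (log2 fold change -0.37, adjusted p = 0.00151 from edgeR) within 1.5-fold, though not past the threshold with scaling to *GAPDH* (adjusted p = 0.182), and *PDK2* and *PDK3* did not pass, with log2 fold changes of 0.12 and -0.012.

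*BNIP3L* encodes a receptor on the outer mitochondrial membrane that marks mitochondria for autophagy. It had 5332 and 5062 counts in control and 6047 and 5836 counts in sgUSP22 libraries, without overlap in CPM. The log2 fold change was 0.11 (95% interval 0.0083 to 0.22) and missed the threshold, with an adjusted p of 0.0673 from edgeR. The adjusted p was 0.0234 without control replicate 1 and 0.0136 when only library size was used. Removal of the GC content and length trends gave a log2 fold change of -0.091. Its closest relative, *BNIP3*, was called lower, from 44.6 ± 0.333 (SD, n = 2) to 24.1 ± 0.620 CPM, a log2 fold change of -0.89 (adjusted p = 2.2e-06 from edgeR). *BNIP3* starts at 131967684 on chromosome 10. Of the 425 tested genes that start beyond 40 Mb on that chromosome 29.6% were called lower, against 6.52% of the 13827 placed elsewhere, and their median log2 fold change was -0.41. None of the 10 genes lies on chromosome 10.

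The last pair, *NDRG1*, a stress-responsive gene that is also named a metastasis suppressor, and *ANKRD37*, a small ankyrin repeat protein gene, did not change detectably. *NDRG1* had 181, 183, 183 and 174 CPM in control replicates 1 and 2 and sgUSP22 replicates 1 and 2. *ANKRD37* had 25.3, 27.1, 25.8 and 25.7 CPM in the same order. In both genes the groups overlapped, with log2 fold changes of -0.027 (95% interval -0.12 to 0.06) and -0.024 (95% interval -0.19 to 0.14). Library size alone and scaling to *GAPDH* made both log2 fold changes positive, but they move every gene nearly alike, taking the median of all genes to 0.053 and 0.23. *UFSP2*, which overlaps *ANKRD37* on the opposite strand, had a log2 fold change of -0.30.

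Levels were compared between genes per kilobase of the canonical GENCODE transcript. In the control libraries *VEGFA* was highest at 79.6 ± 1.27 (SD, n = 2) CPM per kb, followed by *NDRG1* at 60.2 and *ADM* at 38.8 ± 1.55 (SD, n = 2). *SLC2A1* at 33.7 ± 1.85 (SD, n = 2) and *ANKRD37* at 33.4 ± 1.61 (SD, n = 2) did not differ beyond their spread. *BNIP3L* at 24.4, *KDM3A* at 12.3, *PDK1* at 2.49, *CA9* at 1.75 and *EGLN3* at 0.642 CPM per kb followed. In the sgUSP22 libraries *ADM* dropped from the third to the seventh place, at 9.15 ± 0.130 (SD, n = 2) CPM per kb. *CA9* and *EGLN3* exchanged the last places, with *EGLN3* at 1.11 ± 0.0502 (SD, n = 2) and *CA9* at 0.605 ± 0.0767 (SD, n = 2) CPM per kb. The place of *PDK1* depends on its long annotated transcript, since a shorter one would raise its level per kb.

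Few genes of the HIF machinery passed both thresholds. Of 18 genes for HIF subunits and oxygen sensing, 16 were tested, and by edgeR 0 were called higher and 1 was called lower, beside the 8.88% and 7.25% of all tested genes called in these directions. With the fold threshold left off, 6 were higher and 4 lower, beside 26.8% and 25.8% of all tested genes. After the GC content and length trends were removed, 3 were higher and 8 lower. With scaling to *GAPDH*, which moved the median of all genes to 0.23, 11 were higher and 2 lower. The balance of directions thus depended on the processing. *HIF3A* was at 0 counts in all 4 libraries. *HIF1A* had 61486 and 59947 counts in control against 65807 and 66135 in sgUSP22 libraries, and its groups overlapped in CPM, at 1008 and 961 against 1001 and 1025. Its log2 fold change was 0.041 (95% interval -0.033 to 0.12), and after removal of the GC content and length trends it was -0.13, past the adjusted p-value threshold (0.00345 from limma). *EPAS1*, the gene of the other alpha subunit, had a log2 fold change of -0.16 (adjusted p = 0.00404 from edgeR), which became 0.074 with scaling to *GAPDH*. *ARNT* had 0.17 and *VHL* 0.12 on the log2 scale, both past the adjusted p-value threshold in edgeR and within 1.5-fold. For *VHL* the threshold was missed with DESeq2 (adjusted p = 0.0845), with the GC and length correction (0.207) and with any 1 library left out (0.0957 to 0.137). For *ARNT* it was missed with that correction (0.0607), without control replicate 2 (0.0535) and without sgUSP22 replicate 2 (0.0620). Among the hydroxylases *EGLN1* was lower (log2 fold change -0.38, adjusted p = 3.56e-05 from edgeR) and *EGLN2* higher (0.19, adjusted p = 0.0373), both within 1.5-fold. *EGLN2* missed the adjusted p-value threshold with DESeq2 (0.103), without control replicate 2 (0.138), without sgUSP22 replicate 1 (0.0799) and without sgUSP22 replicate 2 (0.128). Differences between paralogs were not tested.

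*CITED2*, which encodes a competitor of HIF for its co-activators, had a log2 fold change of 0.36, and *EP300*, the gene of such a co-activator, of 0.46, both past the adjusted p-value threshold. The 1 gene called lower was *HIF1A-AS3*, an antisense RNA gene at the *HIF1A* locus with 34 and 28 counts in control and 11 and 10 counts in sgUSP22 libraries. Its call (adjusted p = 0.0313 from edgeR) was lost when any 1 of the 4 libraries was left out and with DESeq2 (adjusted p = 0.132). Because the counting is not stated to use strand, reads of any part it shares with *HIF1A* cannot be assigned to 1 gene with certainty.

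Other known HIF targets were mixed in direction, like the 10 members. Of 44 such genes 41 were tested, with 4 called higher and 9 called lower and a median log2 fold change of -0.0053, beside 8.88% of all tested genes called higher and 7.25% called lower. Without the 5 genes on chromosome 10 beyond 40 Mb, 4 of 36 were called higher and 7 lower. Those called higher include *TFRC*, the transferrin receptor gene, a target of HIF as well as of iron regulatory proteins, with a log2 fold change of 1.58 (adjusted p = 8.9e-10 from edgeR). *MIR210HG*, the host transcript of a hypoxia microRNA, had 15 counts in each control library and 74 and 57 counts in the sgUSP22 libraries (log2 fold change 2.04, adjusted p = 0.00227). *RORA*, a nuclear receptor gene, had 10 and 9 against 33 and 40 counts and was not called with DESeq2 (adjusted p = 0.0714), nor without control replicate 2 (0.0562) or sgUSP22 replicate 2 (0.0782). *IGFBP1*, which encodes a binding protein for insulin-like growth factors, had 96 and 96 counts against 243 and 151 and was not called without sgUSP22 replicate 1 (log2 fold change 0.57, adjusted p = 0.146).

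The genes called lower included *RIMKLA*, *IGFBP3*, *EFNA1*, *DDIT4*, *BNIP3*, *PFKFB3*, *VLDLR* and *BHLHE40*. *IGFBP3* fell from 127 ± 4.94 (SD, n = 2) to 50.2 ± 1.01 CPM (log2 fold change -1.34), and the ligand gene *EFNA1* from 125 ± 0.176 (SD, n = 2) to 55.3 ± 3.50 CPM (log2 fold change -1.18). *DDIT4*, an inhibitor gene of mTORC1 signalling, fell from 613 ± 12.3 (SD, n = 2) to 274 ± 4.47 CPM (log2 fold change -1.16), but it lies with *BNIP3* in the lowered part of chromosome 10. *PFKFB3*, which encodes an activator of glycolysis and lies on the short arm of chromosome 10, had a log2 fold change of -0.73. *RIMKLA* had at most 48 counts in a library, and its call was lost with DESeq2 (adjusted p = 0.0948), without control replicate 2 (0.129), without sgUSP22 replicate 1 (0.0534) and without sgUSP22 replicate 2 (0.0776). *BHLHE40* at a log2 fold change of -0.59 lay at the fold threshold. It fell inside that threshold with library size alone (-0.53) and with the GC and length correction (-0.56). The same held without control replicate 2 (-0.56) or sgUSP22 replicate 2 (-0.55), and for *VLDLR* (-0.68) without control replicate 1 (-0.54). With scaling to *GAPDH*, *PFKFB3*, *VLDLR*, *BHLHE40* and *NRP2* were all within 1.5-fold. *EPO* and *STC1* were at 0 counts in all 4 libraries. Among targets that modify collagen, *P4HA2* (log2 fold change 0.51) and *PLOD2* (0.38) passed the adjusted p-value threshold within 1.5-fold.

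**Figure D3:**
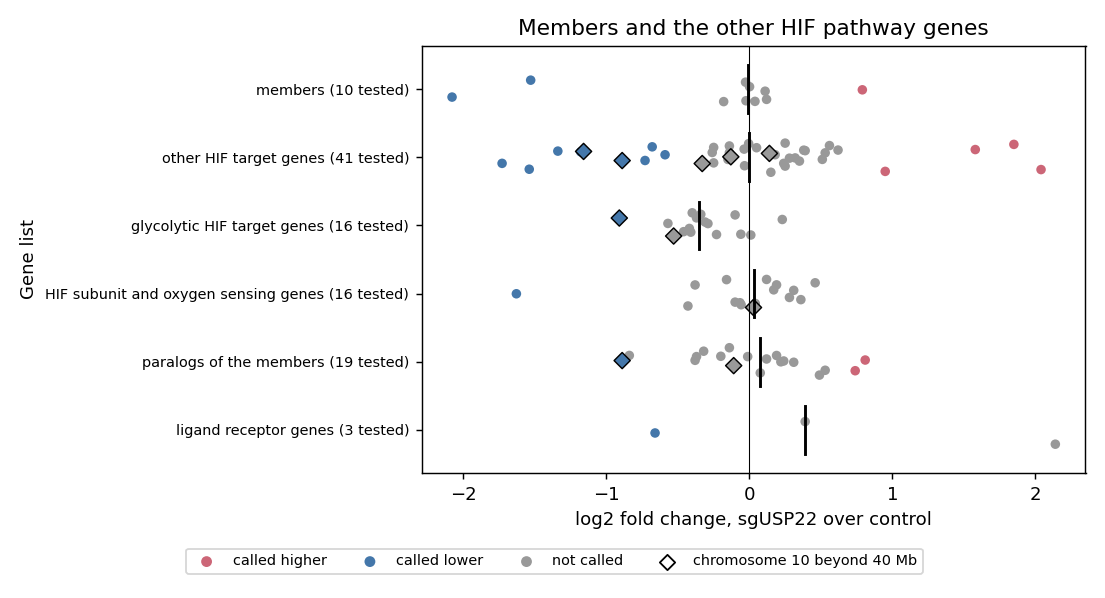
Points show the log2 fold change (sgUSP22 over control) of every tested gene of 6 lists, with called genes coloured, diamonds for genes on chromosome 10 beyond 40 Mb and a bar at each list's median. A gene in 2 lists is drawn in both. The glycolytic list has its median at -0.35. The 3 tested receptor genes have theirs at 0.39, the value of *NRP1*. That receptor median was -2.19 with no filter on low counts and -0.14 with a mean of at least 50 counts, so its sign depended on the filter.

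Most glycolytic HIF targets fell by small amounts. Of 16 tested genes 12 were lower and 1 was higher at the adjusted p-value threshold, with 25.8% of all tested genes lower and 26.8% higher by the same rule, and the median log2 fold change of the list was -0.35. Only *PGAM1*, also on chromosome 10 beyond 40 Mb, was called with the fold threshold (log2 fold change -0.91). Without control replicate 1, and likewise without sgUSP22 replicate 1, a count of 2 was called lower. *ENO1* (-0.37), *GPI* (-0.46) and *PKM* (-0.40) were lower on the log2 scale, *HK2*, the hexokinase gene most responsive to HIF, was higher (0.23, adjusted p = 0.001 from edgeR), and *PGK1* (0.0098) and *LDHA* (-0.06) did not pass. With scaling to *GAPDH*, a member of this list whose own log2 fold change was -0.23, the median of the list was -0.12 with 7 genes lower and 3 higher, and *LDHA* stood at 0.17, while the median of all genes stood at 0.23.

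Among 23 paralogs of the members, 19 were tested, 2 were called higher and 1, *BNIP3*, lower, with the same shares of all tested genes for comparison. *SLC2A4*, the gene of the insulin-responsive glucose transporter, had 118 and 163 counts in control and 328 and 193 counts in sgUSP22 libraries and was not called without sgUSP22 replicate 1 (log2 fold change 0.38, adjusted p = 0.302) or control replicate 1 (0.0899), nor when no filter on low counts was applied (0.101). *SLC2A14* had 62 and 57 against 103 and 107 counts, is nearly identical to *SLC2A3*, so that its reads are uncertain, and lost its call with any 1 library left out and with DESeq2 (adjusted p = 0.183).

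**Figure D4:**
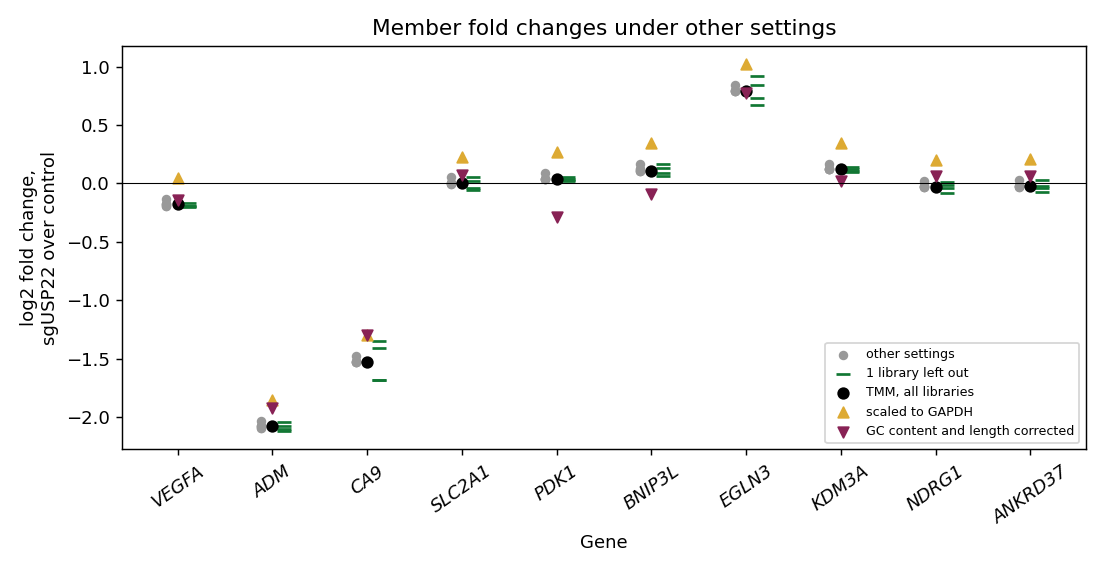
For each of the 10 genes, symbols give the log2 fold change (sgUSP22 over control) with TMM factors and all 4 libraries (black), scaled to *GAPDH* (triangles up), after removal of GC content and length trends (triangles down), with 1 library left out (dashes) and under the remaining settings (grey). *ADM* stays between -2.12 and -1.85 and *CA9* between -1.68 and -1.30, while *VEGFA*, *PDK1*, *BNIP3L*, *NDRG1* and *ANKRD37* have symbols on both sides of 0.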

How the data were processed

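RNA-seq was measured in 4 libraries (2 control, 2 labelled sgUSP22). Reads had been mapped by the authors with HISAT2 2.2.1 (hg38), and they deposited whole-number gene counts from StringTie 2.2.1, which derives them from read coverage, without division by library size. The annotation, read length and strand setting are not given in the sources used here. Columns were assigned to samples by name, and 0 were left out.

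The main test was edgeR 4.0.16 in R 4.3.3 (glmQLFit and glmQLFTest with TMM factors), fitted on the 15150 genes that passed filterByExpr, set to a minimum of 10 counts. The SE was obtained as |log2 fold change| over the root of F, and 95% intervals use the t quantile of the fit. The thresholds (adjusted p below 0.05, 1.5-fold) are those of the study's methods. CPM values use TMM-scaled library sizes. Totals of 62030307 to 64728272 counts make counting error largest for the genes with few counts, and floors cover counting error only.

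Alternatives were RLE factors, library size alone, scaling to *GAPDH*, DESeq2 1.42.0 with independent filtering at 0.1, no low-count filter, a filter at 50 mean counts, a block for replicate number, lowess trends (span 0.3, prior count 2) on GC content and transcript length removed before limma 3.58.1, other call thresholds, lists without chromosome 10 beyond 40 Mb, and leaving out each library. The edgeR, DESeq2 and GC and length corrected fits were also run on counts simulated with known changes from these libraries' means and dispersions. That simulation held no GC content, length or chromosome trend, so it cannot check how the results moved with the processing. Of 28278 symbols 25482 were matched to GENCODE v44. The genes named are the 10 members, *USP22*, the called genes of each list, *BNIP3*, *TFRC* and tested HIF machinery genes, and further list genes chosen for their role after their values were seen. A further called gene is not reported here. The members and lists were chosen with earlier results of these data known. Replicates differed by more than sampling noise (mean chi-square per gene 7.91 in control and 8.44 in sgUSP22 libraries).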

Additional observations from a re-analysis of the deposited data

How the results depend on the processing

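Precision was limited by 2 libraries per group and, for *CA9* and *EGLN3*, by low counts. The calls of *ADM* and *CA9* held under all other settings run. For the 10 members, 69 of 80 comparisons with another setting and 35 of 40 with a library left out kept direction and call. *ADM* ranged from -2.12 to -2.04, *CA9* from -1.68 to -1.35 and *EGLN3* from 0.67 to 0.92 with a library left out, where a lone library is assumed to vary like the other group. The direction reversed with scaling to *GAPDH* for *VEGFA* (0.047), *NDRG1* (0.20) and *ANKRD37* (0.21), with library size alone for *NDRG1* (0.025) and *ANKRD37* (0.028), with the GC and length correction for *PDK1* (-0.29), *BNIP3L* (-0.091), *NDRG1* (0.064) and *ANKRD37* (0.066), and for *SLC2A1* with RLE factors (-0.0025) and a mean of at least 50 counts (-0.0033). With a library left out, *SLC2A1* ranged from -0.054 to 0.058, *NDRG1* from -0.079 to 0.0092 and *ANKRD37* from -0.072 to 0.026. Library size alone and scaling to *GAPDH* move every gene nearly alike (the median of all genes to 0.053 and 0.23). The cause of the other reversals was not tested.

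Other named genes kept direction and call in 506 of 560 comparisons, and reversed with the GC and length correction for *HIF1A* (-0.13, adjusted p = 0.00345 from limma) and *PGK1* (-0.11), with scaling to *GAPDH* for *EPAS1* (0.074), *LDHA* (0.17), *KDM3B* (0.036) and *PDK3* (0.22), with library size alone for *PDK3* (0.040), without sgUSP22 replicate 1 for *PGK1* (-0.037) and without sgUSP22 replicate 2 for *PDK3* (0.036, with a range from -0.077 to 0.036 over the libraries left out).

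The test against 1.5-fold, stricter by construction, called 0 members higher. It called 2 other HIF targets higher and 5 lower, and 0 HIF machinery genes lower, 0 paralogs higher and 0 receptors lower. Without the fold threshold, 14 other HIF targets were higher and 17 lower, 1 glycolytic gene higher and 12 lower, 6 machinery genes higher and 4 lower, 5 paralogs higher and 5 lower, and 1 receptor gene higher. By that rule 26.8% of all tested genes were higher and 25.8% lower. With scaling to *GAPDH*, 8 other targets, 2 machinery genes and 1 receptor gene were higher, and 0 machinery genes and 0 receptors lower, and 2673 of all tested genes were higher and 589 lower, against 1345 and 1098. With a mean of at least 50 counts, 2 other targets were higher and 0 machinery genes lower. With DESeq2, 0 machinery genes were lower and 1 paralog higher, and with no filter 1 paralog was higher. Without chromosome 10 beyond 40 Mb, 0 glycolytic genes and 0 paralogs were lower. With a library left out, members called higher ranged from 0 to 1, glycolytic genes lower from 1 to 2, machinery genes lower from 0 to 0, paralogs higher from 0 to 1, receptors higher from 0 to 1 and receptors lower from 0 to 1.

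The labels tie same-numbered libraries by number only (correlation of their deviations 0.042), and do not say whether they shared a culture or batch. Blocking on the replicate number gave 1341 genes higher and 1100 lower, and of the lists 0 machinery genes were lower and 1 paralog was higher, with no other change beyond 1.5 times.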
